A study of Homo sapiens with 23 samples.

Results

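Genes of glycolysis and of the transcriptional response to low oxygen were examined in 23 xenograft tumours of SCC-13, an established line of human cutaneous squamous cell carcinoma. The 34 genes are a list of known pathway members, found in the table by symbol: 16 glycolytic enzymes, 6 genes of glucose and lactate transport and of flux control, 11 other hypoxia targets, and HIF1A. A mean normalized value of at least 10 over the 23 tumours was met by 33 of them, out of 16063 such genes among the 27589 in the table. SLC2A3, a glucose transporter, missed that mean and was not tested. It averaged 2.57 ± 4.13 in KO and 8.94 ± 14.9 in WT tumours (SD, n = 11 and 12), and its highest value, 54.8, was in WT 6C9 specimen 5533.

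Glycolysis splits glucose to pyruvate in a chain of cytosolic reactions, and lactate dehydrogenase turns pyruvate to lactate so that the chain can run without oxygen. In low oxygen the prolyl hydroxylases that mark the HIF alpha subunits for destruction lose activity, and HIF1A with its partner ARNT then binds hypoxia response elements and raises transcription of glycolytic enzymes, glucose transporters and genes of pH control and survival. Solid squamous carcinomas grow as nests with poorly perfused centres, where this programme is known to be active.

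The study asked what loss of human Flower, the membrane protein hFWE encoded by CACFD1, does in these tumours. KO tumours (hFWE KO, 11) came from the lines 2F7 (3 tumours), 2B8 (4) and 1G10 (4), and WT tumours (hFWE WT, 12) from the lines 5B2, 6C9 and 6C10 (4 each). All were SCC-13 cells placed with Matrigel under the skin of the dorsal flank of NCG mice (NOD-Prkdcem26Cd52Il2rgem26Cd22/NjuCrl), which lack functional lymphocytes but keep their own fibroblasts, vessels and macrophages, and all were taken 26 days later. The labels give neither how a line was derived nor whether it is 1 clone, nor whether tumours had separate mice, so a p-value here reflects tumour-to-tumour spread alone, and since each line has 1 genotype, genotype and line cannot be told apart beyond the 3 lines on each side.

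Keratinocyte markers fit the label, with all 10 of 10 above 0 in every tumour, and KRT14 ranged from 279754 to 429157 in KO and from 202703 to 412428 in WT tumours. The keratins of differentiated layers were at lower means in KO tumours with no call, KRT1 at 44143 ± 24216 in KO and 79927 ± 26039 in WT tumours and KRT10 at 103839 ± 47325 in KO and 168158 ± 53199.5 in WT tumours (SD, n = 11 and 12). The lowest KRT1 and KRT10, 2063 and 6798, were both in a KO tumour. Of other cell types, 4 of 10 endothelial, 3 of 10 macrophage and 0 of 6 erythroid markers reached a mean of 10. CACFD1 was read in every KO tumour, at 167 to 369.5 with a median of 277, and at 286 to 432 with a median of 369.6 in WT tumours, so the groups overlapped. Estimated reads were 13082600 to 22092300 in 21 libraries, 7010962 in WT 6C9 specimen 5532 and 2037744 in WT 6C9 specimen 5533. Specimen 5533 stood apart, with a median correlation of 0.763 to the other libraries and 6.21% mitochondrially encoded signal, against 1.39% to 3.50% in the 21. It was the lowest of the 23 tumours for 16 of the 33 genes and the highest for 8, so results are given with and without specimens 5532 and 5533.

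Per kilobase of exon the genes covered a wide range of levels. The hypoxia-induced stress gene NDRG1 had the highest mean over the 23 tumours, 8478 normalized units per kilobase, ahead of the dehydrogenase GAPDH at 7410, the glucose importer SLC2A1 at 6559 and the mTORC1 inhibitor DDIT4 at 6024. The lowest of the 33 was the lactate exporter SLC16A3, at 5.38 units per kilobase. Among isoenzymes, the enolase ENO1 stood at 2979 per kilobase and ENO2 at 26.8, and the aldolase ALDOA at 2824 and ALDOC at 102. Hexokinase HK2 stood at 448 and HK1 at 267, and the phosphofructokinases PFKL, PFKP and PFKM at 258, 169 and 124. CA9, a membrane carbonic anhydrase and a widely used marker of tumour hypoxia, was modest at 145 per kilobase.

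Promoter windows, from 250 bases before to 50 bases after the RefSeq gene start on GRCh38.p14, were at hand for 31 of the 34 genes. They were searched on both strands for ACGTG and GCGTG, the forms of the core of the hypoxia response element. Their reverse complements are CACGT and CACGC, and the palindrome CACGTG counts as overlapping matches on both strands. At least 1 match was in 23 of 31 windows (74.2%), against 48.4% of 35116 windows of all genes. The form ACGTG was in 13 of 31 (41.9%), against 21.4% of all windows. Matches were in 11 of 16 glycolytic enzymes, 3 of 5 transport and flux genes, 8 of 9 other targets, and HIF1A. The median GC content was 69.7% in the 31 windows and 58.7% in all windows. A match is a description of the letters and not a binding site, and no match says only that the letters are not in the window.

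Shown are the windows of CA9 and of the 4 genes whose levels followed CA9 with the smallest p-values, read 5′ to 3′ along the strand of the gene, with the matched core in capitals. They lie at chr9:35673678-35673977 (plus strand, CA9), chr10:73096817-73097116 (minus strand, P4HA1), chr2:172555123-172555422 (plus strand, PDK1), chr19:34364742-34365041 (plus strand, GPI) and chr12:6914330-6914629 (plus strand, ENO2). In CA9 the core began 18 bases before the start, in P4HA1 86, in GPI 162 and in ENO2 118, and the window of PDK1 had none.
CA9: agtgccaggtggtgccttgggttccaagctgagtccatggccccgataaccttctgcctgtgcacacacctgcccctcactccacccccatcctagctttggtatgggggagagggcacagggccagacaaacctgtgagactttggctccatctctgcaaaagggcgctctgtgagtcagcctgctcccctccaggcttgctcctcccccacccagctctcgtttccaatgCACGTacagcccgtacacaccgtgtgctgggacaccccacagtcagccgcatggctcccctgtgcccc
P4HA1: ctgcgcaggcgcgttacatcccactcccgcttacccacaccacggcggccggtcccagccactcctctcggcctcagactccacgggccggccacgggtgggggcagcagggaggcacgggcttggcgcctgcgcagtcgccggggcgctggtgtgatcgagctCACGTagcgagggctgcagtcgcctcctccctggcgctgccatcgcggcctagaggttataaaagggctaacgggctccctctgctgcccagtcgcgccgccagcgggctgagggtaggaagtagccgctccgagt
PDK1: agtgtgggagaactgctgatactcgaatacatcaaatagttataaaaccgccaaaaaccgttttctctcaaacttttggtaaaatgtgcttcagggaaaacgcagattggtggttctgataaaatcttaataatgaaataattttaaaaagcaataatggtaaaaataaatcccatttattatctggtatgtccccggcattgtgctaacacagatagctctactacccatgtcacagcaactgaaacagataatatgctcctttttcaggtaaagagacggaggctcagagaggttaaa
GPI: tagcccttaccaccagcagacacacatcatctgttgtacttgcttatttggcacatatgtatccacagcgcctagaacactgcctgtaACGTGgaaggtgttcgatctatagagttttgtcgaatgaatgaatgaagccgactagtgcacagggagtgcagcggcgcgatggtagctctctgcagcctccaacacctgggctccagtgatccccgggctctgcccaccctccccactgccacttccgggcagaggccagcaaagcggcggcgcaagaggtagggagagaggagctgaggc
ENO2: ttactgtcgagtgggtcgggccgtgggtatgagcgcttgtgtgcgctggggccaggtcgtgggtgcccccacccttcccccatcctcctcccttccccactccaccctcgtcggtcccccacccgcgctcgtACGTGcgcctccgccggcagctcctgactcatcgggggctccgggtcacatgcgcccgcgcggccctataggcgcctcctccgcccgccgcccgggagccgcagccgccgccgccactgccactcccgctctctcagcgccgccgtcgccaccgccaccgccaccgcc

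No gene of the 33 was called between KO and WT tumours, although most had a slightly higher mean log2 value in KO tumours. In limma with Benjamini-Hochberg adjustment over all genes, 0 of 33 passed an adjusted p of 0.05, where 1 of all 16063 genes (0.00623%) did, and the lowest adjusted p among the 33 was 0.342. At an unadjusted p under 0.05 there were 5 of 33, each higher in KO tumours, where 12.5% of all genes were under it, 5.90% higher and 6.63% lower. The log2 difference was above 0 for 27 of 33, where it was for 54.2% of all genes. Its median was 0.13 over the 33 and 0.03 over all genes. By role the medians were 0.08 for the glycolytic enzymes (12 of 16 above 0), 0.34 for transport and flux control (5 of 5) and 0.15 for the other hypoxia targets (9 of 11). With specimens 5532 and 5533 left out, 0 of 33 were called and 0 had an unadjusted p under 0.05, against 10.6% of all genes, 25 of 33 differences were above 0, against 50.0% of all genes, and the medians by role were 0.02, 0.23 and 0.10. Beside these values, 6 of 8 fibroblast markers were higher in KO tumours, with a median log2 difference of 0.35, or 0.06 without both specimens, and 7 of 10 keratinocyte markers were, with a median of 0.25, or 0.10 without both. With fibroblast markers as a covariate, PFKL and ALDOA changed sign and no gene of the 33 was called; the part of keratinocyte content was not tested. In bulk tumours fewer cells of a type and less RNA per cell cannot be told apart.

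**Figure D1:**
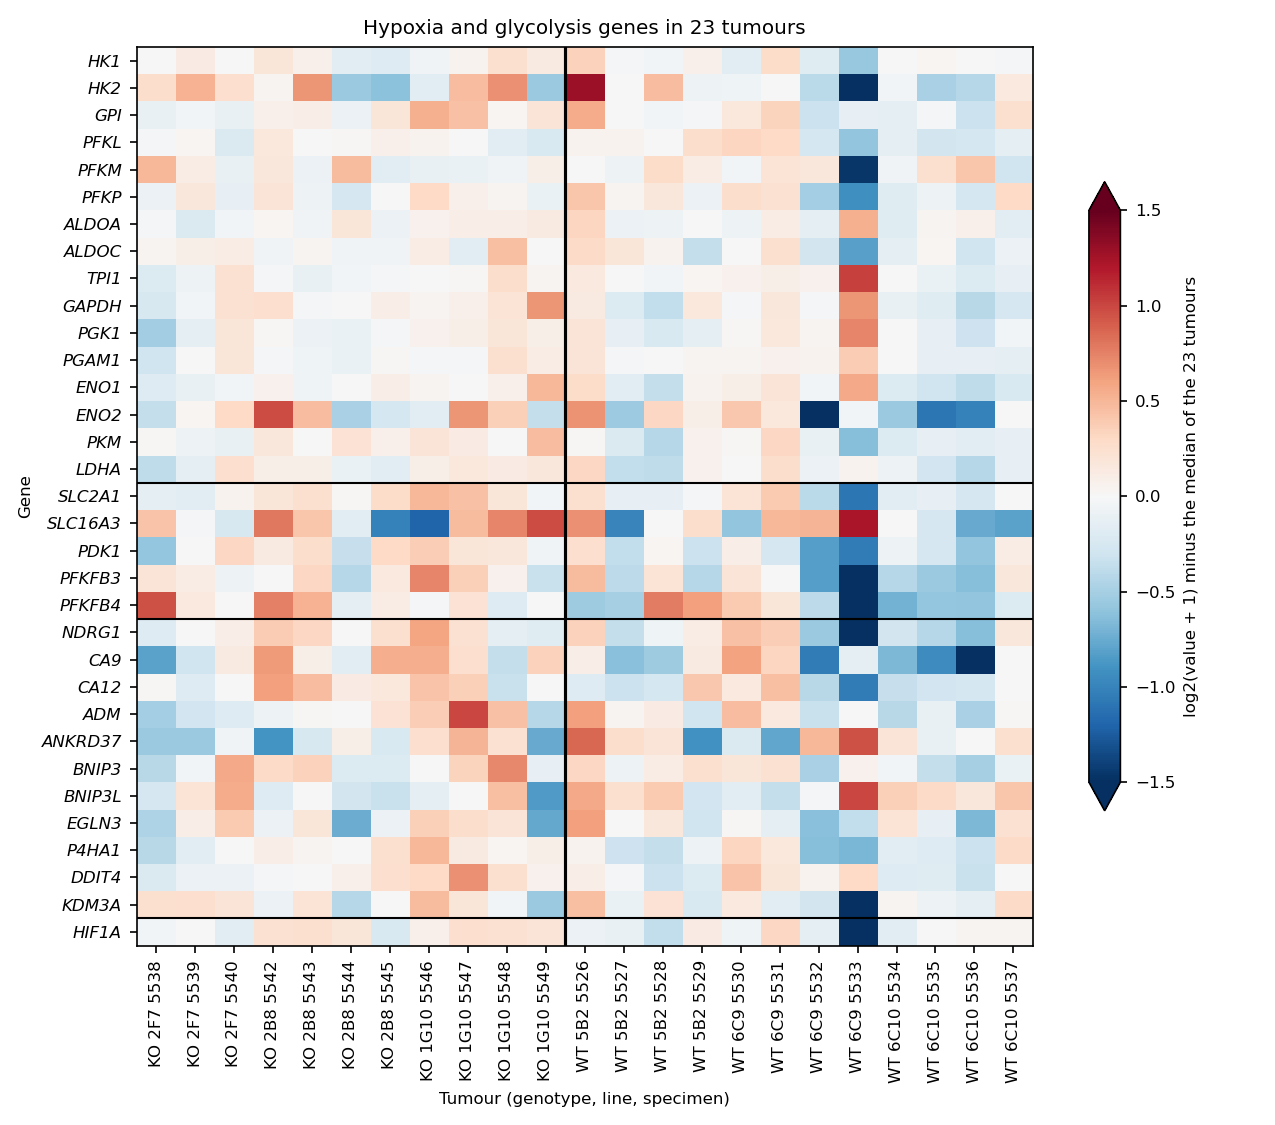
Each row is 1 of the 33 genes and each column 1 tumour, KO left of WT by line, and colour gives log2(value + 1) minus the gene's median over the 23 tumours, with horizontal lines between the roles and a vertical line between the genotypes. Values beyond the ends of the colour scale take its end colours; WT 6C9 specimen 5533 is the lowest column for 16 genes and the highest for 8.

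**Figure D2:**
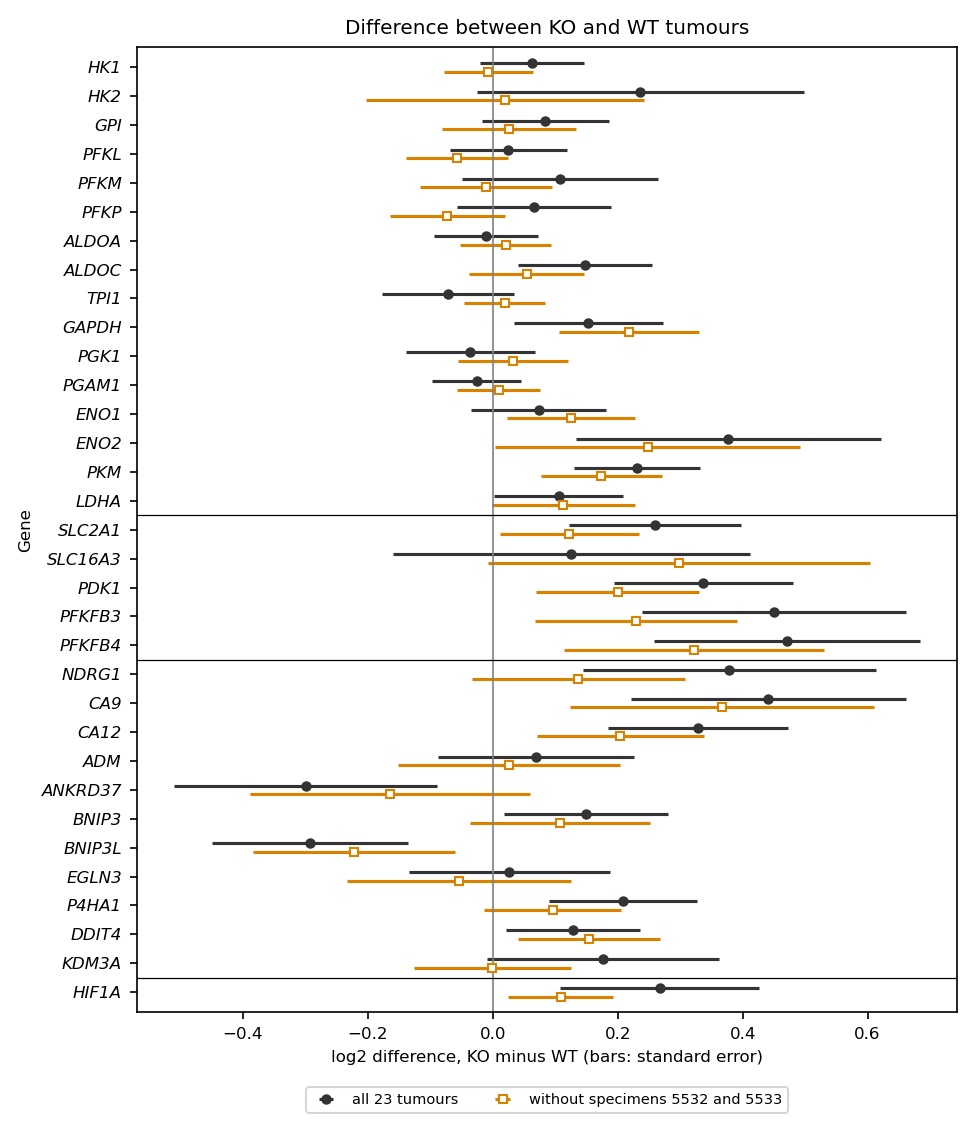
Points give the log2 difference, KO minus WT, of each gene and bars its standard error, with all 23 tumours (filled) and without specimens 5532 and 5533 (open). Of the 33 filled points 27 lie right of 0, and no gene was called.

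Among the glycolytic enzymes, PKM, the pyruvate kinase of the last step (ENSG00000067225, chr15:72199029-72231820, minus strand, hg38), had the highest mean before scaling by exon length. Per kilobase it stood at 2686, below GAPDH at 7410. PKM was the 1 enzyme of 16 with an unadjusted p under 0.05, against 12.5% of all genes. It was 21347 at the lowest, 24348 at the median and 31814 at the highest in KO tumours, against 14781, 21201 and 28699 in WT tumours. The WT median was exceeded by 11 of 11 KO tumours, and the groups overlapped. The means were 24876 ± 2950 in KO and 21327 ± 3487 in WT tumours (SD, n = 11 and 12), a log2 difference of 0.23 with SE 0.10 (limma, p = 0.030, adjusted p = 0.349). Without specimens 5532 and 5533 the difference was 0.17 with SE 0.10 (adjusted p = 0.544). By line, PKM averaged 22186 for 2F7, 25104 for 2B8 and 26666 for 1G10, against 21122 in 5B2, 22068 in 6C9 and 20790.2 in 6C10, so that KO line means were all higher with all tumours. Without specimen 5533 the mean of 6C9 was 24498, above 2F7, and without both specimens 26015, above 2F7 and 2B8.

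No enzyme of the steps before PKM had an unadjusted p under 0.05. Hexokinase HK2, which traps glucose in the cell, averaged 2850.4 ± 913 in KO and 2592 ± 1330.2 in WT tumours (SD, n = 11 and 12), with a log2 difference of 0.24 and SE 0.26. Without specimens 5532 and 5533 the WT mean of HK2 was 2860.3, and without line 6C9 its log2 difference was -0.012. No direction is given for HK2. GPI, which isomerizes glucose 6-phosphate, averaged 4288 ± 679 in KO and 4062 ± 766 in WT tumours (SD, n = 11 and 12). GAPDH averaged 23219.7 ± 4044 in KO and 21054 ± 4770 in WT tumours, with a log2 difference of 0.15 and SE 0.12. LDHA, which makes lactate, averaged 21826 ± 2700 in KO and 20396 ± 3498 in WT tumours, with a log2 difference of 0.11 and SE 0.10. ENO2, whose log2 difference of 0.38 was the farthest from 0 among the enzymes, had an SE of 0.24. The differences of ALDOA, TPI1, PGK1 and PGAM1 were -0.01, -0.07, -0.04 and -0.03, and each was above 0 without specimens 5532 and 5533, while those of HK1, PFKL, PFKM and PFKP were 0.06, 0.03, 0.11 and 0.07 and each was below 0 without both specimens. No direction is given for these 8 enzymes.

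Genes that set glucose uptake and the rate and outlet of glycolysis had the largest median difference, and 3 of the 5 tested had an unadjusted p under 0.05. PDK1, which shuts pyruvate out of the mitochondrion by phosphorylating pyruvate dehydrogenase (ENSG00000152256, chr2:172555373-172608670, plus strand, hg38), was 392 at the lowest, 659 at the median and 757 at the highest in KO tumours, against 283, 494 and 700 in WT tumours. Of the KO tumours 9 of 11 lay above the WT median, and the groups overlapped. The means were 627 ± 115 in KO and 503 ± 127 in WT tumours (SD, n = 11 and 12), with a log2 difference of 0.34, SE 0.14 (limma, adjusted p = 0.342).

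PFKFB3 makes fructose 2,6-bisphosphate, the allosteric activator of phosphofructokinase. Its values were 857, 1245 and 1923 (lowest, median, highest) in KO tumours, against 283, 872 and 1610.3 in WT tumours. All but 1 KO tumour lay above the WT median, and the groups overlapped. The log2 difference was 0.45, SE 0.21 (limma, adjusted p = 0.386). PFKFB4, an isoenzyme of PFKFB3, was at 548, 677 and 1218 in KO tumours, against 219, 461 and 1069 in WT tumours. Again 11 of 11 KO tumours exceeded the WT median, with overlap between the groups. The log2 difference was 0.47, SE 0.21 (limma, adjusted p = 0.369).

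SLC2A1, the transporter that lets glucose in, was at 26997, 34139 and 42542 in KO tumours, against 14251, 27824 and 39781 in WT tumours (lowest, median, highest). The groups overlapped, 9 of 11 KO tumours lay above the WT median, and the log2 difference was 0.26 with SE 0.14 (limma, adjusted p = 0.439). SLC16A3, which lets lactate out, rested on low values of 17.8 to 84.3 in KO and 20.8 to 100.5 in WT tumours. Specimen 5533 lowered 4 of the 5 genes in the WT group, being the lowest tumour for each, and was the highest for SLC16A3. Without specimens 5532 and 5533 the differences of PDK1, PFKFB3, PFKFB4 and SLC2A1 were 0.20, 0.23, 0.32 and 0.12, each with an adjusted p of 0.616 or above.

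Of the 11 other hypoxia targets, CA12, another membrane carbonic anhydrase, was the 1 with an unadjusted p under 0.05, against 12.5% of all genes. Its values were 2682, 3685 and 5175 (lowest, median, highest) in KO tumours, against 1626, 2815 and 4625 in WT tumours. Of the KO tumours 10 of 11 lay above the WT median, and the groups overlapped. The means were 3810 ± 766 in KO and 3084 ± 844 in WT tumours (SD, n = 11 and 12), with a log2 difference of 0.33, SE 0.14 (limma, adjusted p = 0.353), and 0.20 without specimens 5532 and 5533. With library quality weights, a setting that called 1024 of all genes, CA12 passed the threshold at 0.38 (limma, adjusted p = 0.034), the 1 gene of the 33 that did.

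CA9 (ENSG00000107159, chr9:35673928-35681160, plus strand, hg38) was at 143, 202 and 275 in the 3 tumours of 2F7, at 390.4, 266, 224 and 364 in 2B8, and at 365, 298, 195 and 319 in 1G10. In WT tumours it was at 269, 161, 172 and 275 in 5B2, at 380.1, 313, 119.9 and 228 in 6C9, and at 156, 129.8, 88.1 and 249.9 in 6C10. High and low tumours occurred in both groups, which overlapped, and line 6C10 held the lowest tumour. The means were 276 ± 79.8 in KO and 212 ± 88.0 in WT tumours (SD, n = 11 and 12), with a log2 difference of 0.44, SE 0.22 (limma, adjusted p = 0.411). Without specimens 5532 and 5533 the WT mean of CA9 was 219. The mean of 6C9 was then 346, above every KO line mean (207 in 2F7, 311 in 2B8 and 294 in 1G10).

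NDRG1, the most abundant of these targets, was at 72248, 88532 and 124508 (lowest, median, highest) in KO tumours, against 17595, 73750 and 112768 in WT tumours. The WT minimum was specimen 5533, the groups overlapped, and the log2 difference was 0.38 with SE 0.23, or 0.14 without specimens 5532 and 5533. Lower in KO tumours by mean, with no call, were the mitophagy receptor BNIP3L, at 2708 ± 728 in KO and 3319 ± 924 in WT tumours, and ANKRD37, at 81.1 ± 25.4 in KO and 102 ± 38.5 in WT tumours (SD, n = 11 and 12). Specimen 5533 was the highest tumour for both genes. Without specimens 5532 and 5533 their WT means were 3155 and 92.8. Their 6C9 means were then 2312 and 64.1, below the mean of every KO line. BNIP3, the relative of BNIP3L, had a log2 difference of 0.15 and BNIP3L one of -0.29, with SE 0.13 and 0.16, and the difference between the 2 genes was not tested.

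P4HA1, a collagen prolyl hydroxylase subunit, had a log2 difference of 0.21, the histone demethylase KDM3A one of 0.18, DDIT4 one of 0.13, the peptide hormone ADM one of 0.07 and the HIF prolyl hydroxylase EGLN3 one of 0.03, none called. With specimens 5532 and 5533 left out, KDM3A was at -0.00084 and EGLN3 at -0.054, so no direction is given for them. HIF1A itself, whose protein is controlled mainly by degradation, was at 2057, 2729 and 2873 (lowest, median, highest) in KO tumours, against 722, 2290 and 2996 in WT tumours. The groups overlapped, the WT minimum was specimen 5533, and the log2 difference was 0.27 with SE 0.16 (limma, adjusted p = 0.473), or 0.11 without specimens 5532 and 5533.

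**Figure D3:**
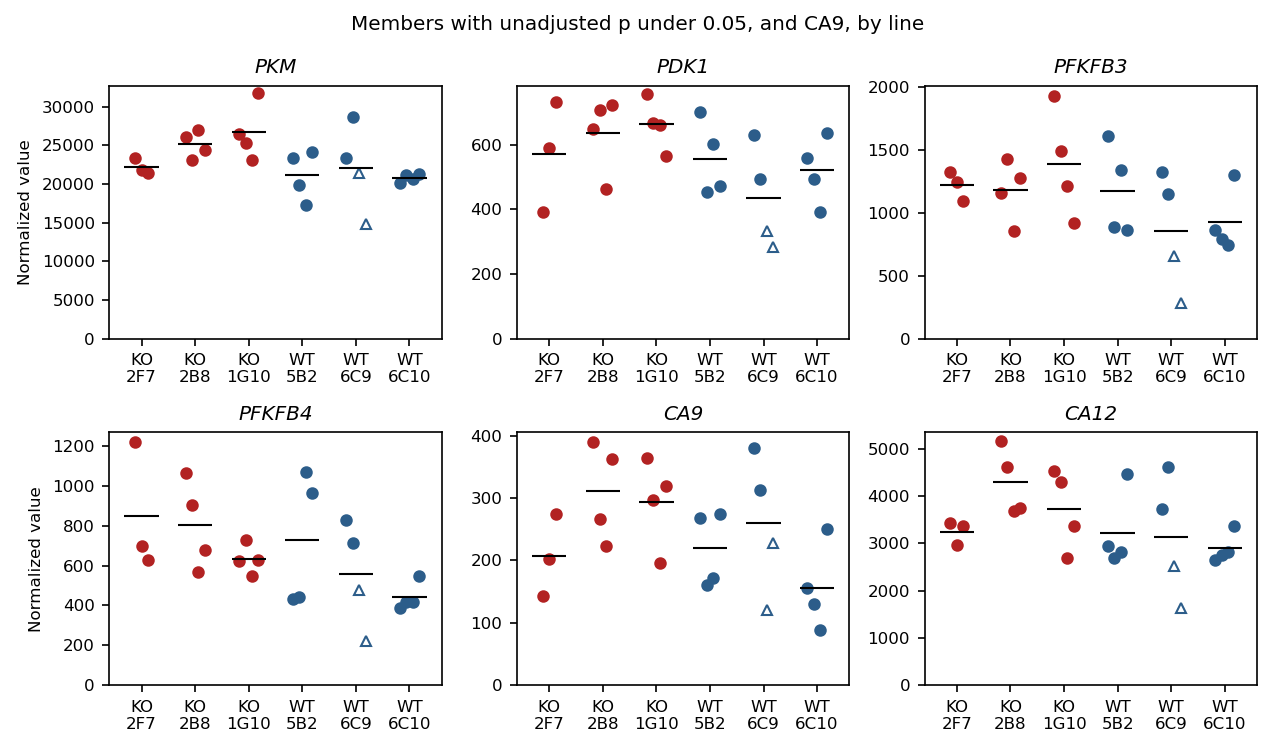
Normalized values by line, KO left of WT, with 1 point per tumour, a bar at each line mean and open triangles for specimens 5532 and 5533. The genes are the 5 with an unadjusted p under 0.05 and CA9. PKM, PDK1, PFKFB3 and CA12 have KO line means that all lie above the WT line means with all tumours. For PKM, PFKFB3 and CA12 this ends when the triangles are left out (6C9 means of 26015, 1235 and 4179.7). PDK1 then stays apart by plain means, at 570.2 in 2F7 and 560.4 in 6C9, but overlaps by means of log2 values. Single tumours overlap in every panel.

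Line by line, with all tumours, 1G10 lay farthest above the WT lines and 2F7 nearest to them. The comparisons of each KO line with the WT lines are given with all tumours only, specimens 5532 and 5533 included. Against the mean of the WT lines, 0 of 33 genes were called in any KO line by limma, and 0 of all genes (0%) were called in each of the 3 comparisons, which share the WT tumours. The median log2 difference of the 33 was 0.04 in 2F7, 0.07 in 2B8 and 0.26 in 1G10. Differences above 0 were 21 of 33 in 2F7, 26 in 2B8 and 29 in 1G10, against 53.9%, 55.4% and 52.8% of all genes. At an unadjusted p under 0.05 there were 0 of 33 in 2F7 (2.48% of all genes), 2 in 2B8 (8.19%), which were CA9 and CA12, and 4 in 1G10 (9.66%), which were PKM, PDK1, P4HA1 and DDIT4. CA9 differed by 0.03 in 2F7, 0.64 in 2B8 and 0.56 in 1G10 on the log2 scale, while PFKFB4 differed by 0.63, 0.57 and 0.26. Without both specimens the plain CA9 mean of 6C9 was 346, above 311 in 2B8 and 294 in 1G10. ADM was at -0.31 in 2F7 and 0.37 in 1G10. For 5 of 33 genes the 3 KO line means lay all on 1 side of the 3 WT line means, against 18.6% of all genes. PKM, PDK1, PFKFB3 and CA12 were the 4 above, where 9.77% of all genes were, and ANKRD37 was the 1 below. These are means of log2 values, and the separation rested on specimens 5532 and 5533: without specimen 5533 it held for 2 of 33 genes, PDK1 and PFKFB3 (14.3% of all genes), and without both for none of the 5 and for 1 of 33, SLC16A3 (11.3% of all genes). An exact two-sided permutation of the 6 line means gives p = 0.1, the smallest this design can reach, whenever the means separate fully. It therefore adds nothing for these 5, which were picked for that separation.

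Lines of the same genotype were not separated by these genes either. Among the KO lines 0 of 33 genes were called by limma's F test, as were 0 of all genes (0%), and 2 of 33, ADM and DDIT4, had an unadjusted p under 0.05, against 2.22% of all genes. Among the WT lines 0 of 33 were called, against 0.00623% of all genes, and 2 of 33, ENO1 and DDIT4, had an unadjusted p under 0.05, against 10.3% of all genes. ENO1 averaged 15255 in 5B2, 18129 in 6C9 and 12863 in 6C10. DDIT4 averaged 10829.5 ± 561 in 2F7, 12559 ± 1122 in 2B8 and 15025 ± 2859 in 1G10 among the KO lines. Leaving out specimens 5532 and 5533 gave 6 of 33 at an unadjusted p under 0.05 among the WT lines, against 15.6% of all genes, and still 0 called.

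Within lines the enzymes of the chain varied less from tumour to tumour than the hypoxia targets did. With specimens 5532 and 5533 left out, the median SD of log2 values within lines was 0.18 for the glycolytic enzymes, 0.36 for transport and flux control, 0.31 for the other targets, 0.25 for all genes and 0.17 for all genes with a mean of at least 1000. The steadiest enzymes were PFKL, the triose phosphate isomerase TPI1 and the mutase PGAM1, with SDs of 0.10, 0.11 and 0.12. ENO2 and HK2 were the exceptions among the enzymes, with SDs of 0.50 and 0.49. SLC16A3 had the largest of the 33, 0.71, and CA9 had 0.45.

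Particular tumours were high or low across the set. WT 5B2 specimen 5526 was among the 3 highest tumours for 17 of the 33 genes and for 11 of the 16 enzymes. Its HK2 value of 6185 was the highest of the 23 tumours, and so were its LDHA and GPI, at 26585 and 5772. WT 6C10 specimen 5536 was among the 3 lowest for 20 of the 33 genes and for 10 of the 16 enzymes, including the lowest GAPDH, ENO1 and LDHA, at 15835, 11976 and 15900.4. KO 1G10 specimen 5546 was the highest tumour for 6 genes, among them SLC2A1, PDK1, PFKFB3 and NDRG1. Specimen 5533 had the highest ALDOA, TPI1, PGK1, PGAM1 and ENO1 and the lowest HK2, PFKL, PFKM, PFKP and PKM; the part of its depth and RNA quality in these values was not tested.

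The tumours were next compared by CA9, the transcript marker of hypoxia in the set, as the slope of each gene's log2 value on that of CA9 among tumours of the same line. No gene of the 32 besides CA9 was called over all 23 tumours, where 3 of 16062 genes (0.0187%) were. Slopes were above 0 for 27 of 32, against 53.1% of all genes. At an unadjusted p under 0.05 there were 10 of 32, all positive, against 5.40% of all genes in either direction and 3.08% positive. The 10 were the enzymes GPI, PFKP, ENO2 and LDHA, the kinase PDK1, and the targets NDRG1, CA12, BNIP3, EGLN3 and P4HA1. The median slope was 0.15 for the glycolytic enzymes, 0.30 for transport and flux control, 0.27 for the other targets and 0.01 for all genes. Without specimens 5532 and 5533 these medians were 0.09, 0.19 and 0.21 by role, and with skeletal muscle markers as a covariate they were 0.11, 0.15 and 0.12. Without specimens 5532 and 5533 there were again 10 positive, of which 9 were the same, against 2.45% of all genes. PFKM had a negative slope of -0.36 (limma, adjusted p = 0.619), which made 11 of 32 in either direction, against 4.95% of all genes, and slopes above 0 were 25 of 32, against 52.8%. PFKM was highest in KO specimens 5538 and 5544 and WT specimen 5536, at 1241, 1219 and 1176. These were also the tumours with the most skeletal muscle signal. With muscle markers as a covariate over all 23 tumours, 0 of 16 enzymes had a negative slope with an unadjusted p under 0.05 (limma). Without that covariate no member had one over all 23 tumours either. The covariate was not fitted without specimens 5532 and 5533, so the part of muscle in the slope of -0.36 was not tested.

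**Figure D4:**
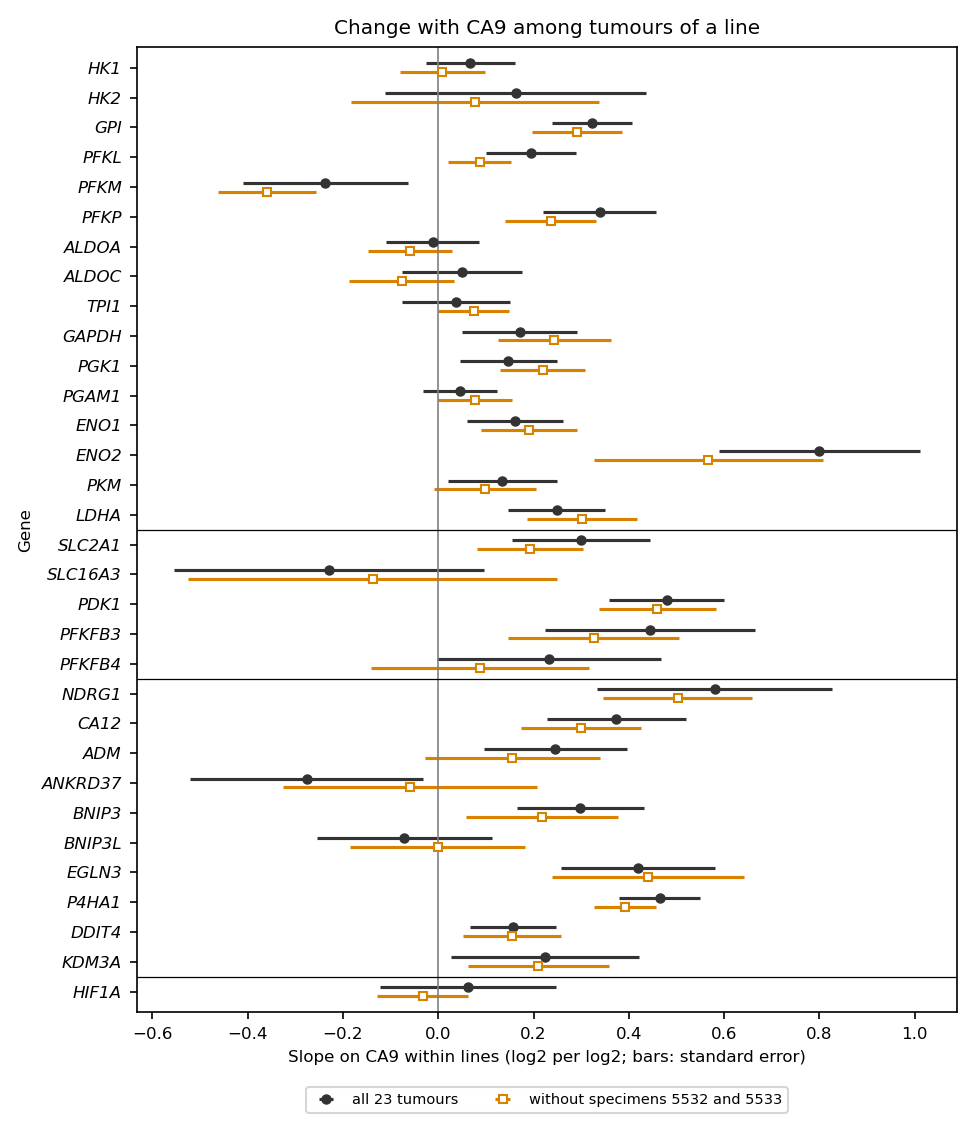
Points give the slope of each gene on CA9 within lines, in log2 per log2, and bars its standard error, with all 23 tumours (filled) and without specimens 5532 and 5533 (open). Of the 32 filled points 27 lie right of 0; P4HA1 and PDK1 stand at 0.46 and 0.48 with short bars, ENO2 at 0.80 with a longer one.

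P4HA1 had the smallest p of the set. It was at 552, 654 and 737 in the 3 tumours of 2F7, in the same order as CA9, and at 924, 820.3, 472 and 457 in the tumours 5530, 5531, 5532 and 5533 of 6C9, where CA9 was at 380.1, 313, 119.9 and 228. In 2F7 both genes put the tumours in the same order, and in 6C9 specimens 5530 and 5531 were the high ones for both. The highest tumour was also shared in 1G10 and 6C10, but not in 2B8 or 5B2. In 2B8 CA9 was highest in specimen 5542 and P4HA1 in 5545, and in 5B2 CA9 was highest in 5529 and P4HA1 in 5526. The slope was 0.46 with SE 0.08 (limma, adjusted p = 0.0996), and 0.39 with adjusted p = 0.087 without specimens 5532 and 5533. Leaving out specimen 5533 alone gave 0.46 with adjusted p = 0.0011, past the threshold, in a fit that called 13 of all genes (0.0809%), and in that fit 14 of 32 genes were positive with an unadjusted p under 0.05.

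PDK1 followed with a slope of 0.48, SE 0.12 (limma, adjusted p = 0.352), then GPI with 0.32, SE 0.08 (adjusted p = 0.407), and ENO2 with 0.80, SE 0.21 (adjusted p = 0.423). These 4 genes were picked for their p-values, so the numbers describe them and are no independent evidence. With no line term, P4HA1, GPI and ENO2 were called, at adjusted p values of 0.015, 0.037 and 0.024, in a fit that called 1.17% of all genes. Of the windows printed above, those of P4HA1, GPI and ENO2 held the core CACGT or ACGTG and that of PDK1 held neither form. Among other genes with positive slopes at an unadjusted p under 0.05 over all tumours (limma), LDHA had 6 matches, and PFKP and EGLN3 had 0. Genes without such a slope also had matches, 4 in PGK1 and 5 in ALDOC. The relation between matches and slopes was not tested. In the middle of the chain, ALDOA had a slope of -0.01, TPI1 0.04, GAPDH 0.17, PGK1 0.15 and PGAM1 0.05 with all tumours. The SEs were 0.10, 0.11, 0.12, 0.10 and 0.08. These values alone do not set these enzymes apart, because specimen 5533 was the highest tumour for ALDOA, TPI1, PGK1 and PGAM1. Without specimens 5532 and 5533, 5 of 16 enzymes had positive slopes with an unadjusted p under 0.05 (limma), against 2.45% of all genes. With all tumours 4 of 16 did, against 3.08% of all genes. HIF1A had a slope of 0.06 with SE 0.18.

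**Figure D5:**
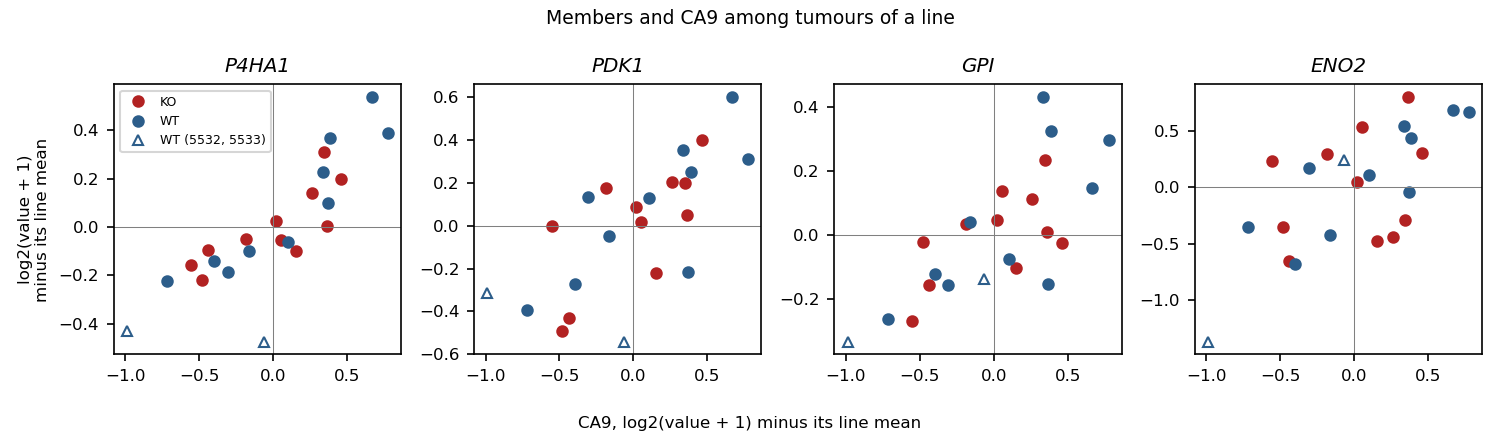
Each point is 1 tumour, red for KO and blue for WT, open triangles for specimens 5532 and 5533; the horizontal axis gives log2(value + 1) of CA9 and the vertical axis that of the named gene, each minus the mean of its line. The cloud rises from lower left to upper right in each panel, most narrowly for P4HA1, whose slope was 0.46.

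Skeletal muscle transcripts moved against CA9. All 10 of 10 muscle markers had negative slopes with an unadjusted p under 0.05, against 5.40% of all genes in either direction. Their median slope was -3.33. Without specimens 5532 and 5533 there were 8 of 10, against 4.95% of all genes, with a median of -2.63. Their summed value ranged from 239.9 to 15664 in KO and from 50.1 to 15535 in WT tumours, with none at 0 in any KO tumour, and with CKM, MYL1, MYH1, MYH2, TNNT3 and TNNC2 at 0 in at least 1 WT tumour. In 4 of the 6 lines the tumour with the least CA9 was the one with the most muscle signal: KO 2F7 specimen 5538 (15143), KO 2B8 specimen 5544 (15664), WT 6C9 specimen 5532 (7378) and WT 6C10 specimen 5536 (15535). With the mean of the muscle markers as a covariate, an alternative chosen after the data were seen, 4 of 32 genes were positive with an unadjusted p under 0.05, against 1.82% of all genes. These were P4HA1, GPI, PDK1 and ENO2, with slopes of 0.37, 0.28, 0.35 and 0.62. Slopes above 0 were 23 of 32, against 47.3% of all genes. In that fit 0 of 32 genes were called by limma and 0 of all genes (0%). Fibroblast markers had positive slopes for 8 of 8 tested, against 53.1% of all genes. With an unadjusted p under 0.05 there was 1 of 8, against 3.08% of all genes on the positive side. The fibroblast markers summed to between 4131 and 28880 in KO and between 2850 and 17383 in WT tumours. Their part in the slopes was not tested.

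Around the 33 genes, related parts of the pathway gave no call between genotypes. Other isoforms of glycolysis and transport had 8 of 20 genes with a mean of at least 10, of which 4 were higher and 4 lower in KO tumours. The monocarboxylate transporter SLC16A1, with the highest mean, was at 4115 ± 555 in KO and 3525 ± 826 in WT tumours, and the lactate dehydrogenase subunit LDHB at 1766 ± 364 in KO and 2029 ± 500.0 in WT tumours (SD, n = 11 and 12). BPGM, which diverts glycolysis to 2,3-bisphosphoglycerate, was the 1 gene of the 8 tested with an unadjusted p under 0.05, against 12.5% of all genes. Its log2 difference was -0.31 (limma, adjusted p = 0.323).

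Genes of pyruvate entry to the mitochondrion had 11 of 12 tested, 4 higher and 7 lower. The highest means, not scaled by exon length, were those of the phosphatase PDP1 and the dehydrogenase subunit DLD, whose log2 differences were 0.19 and 0.05. PDK3, which acts like PDK1 and is named because of its low p-value, had 238 ± 38.9 in KO and 175 ± 35.0 in WT tumours (SD, n = 11 and 12), with a log2 difference of 0.45, SE 0.12 (limma, adjusted p = 0.227) and 0.38 without specimens 5532 and 5533. PDK3 had a slope on CA9 of 0.06, against 0.48 for PDK1, and the difference between them was not tested. The machinery that controls HIF had 13 of 15 tested, 5 higher and 8 lower. EPAS1, the HIF2 alpha subunit, and the coactivator EP300 had the highest means, not scaled by exon length, and differed by 0.15 and 0.32 in log2. The coactivator competitor CITED2 had a log2 difference of -0.29 (limma, adjusted p = 0.366).

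A further 27 HIF targets outside the set were all tested, with 19 higher and 8 lower in KO tumours and a median log2 difference of 0.17, against 54.2% higher and a median of 0.03 for all genes. Leaving out specimens 5532 and 5533 gave 17 higher and 10 lower, and a median of 0.07. IGFBP3, which binds insulin-like growth factors, was at 17389 ± 5690 in KO and 16694 ± 6968 in WT tumours, and the repressor BHLHE40 at 3406 ± 692 in KO and 3563 ± 1175 in WT tumours (SD, n = 11 and 12). An unadjusted p under 0.05 was found for 3 of 27, against 12.5% of all genes, and for 0 of 27 without specimens 5532 and 5533. Among the 3 were P4HA2, a collagen prolyl hydroxylase subunit, and PLOD2, a collagen lysyl hydroxylase, at log2 differences of 0.35 and 0.31 (limma, adjusted p = 0.313 and 0.357). On CA9, 22 of the 27 had positive slopes, against 53.1% of all genes, and 9 were positive with an unadjusted p under 0.05, against 3.08%. There were 5 such genes without specimens 5532 and 5533, against 2.45% of all genes, and 4 with the muscle covariate, against 1.82%. Stanniocalcin STC2 was the 1 called, with a slope of 1.11 and SE 0.18 (limma, adjusted p = 0.034). The call was lost without specimens 5532 and 5533, at a slope of 1.08 and adjusted p = 0.419, and with muscle markers as a covariate, at 0.95. Among the 9 were ANGPTL4, P4HA2, PLOD1 and PLOD2, with slopes of 0.52, 0.41, 0.26 and 0.39.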

How the data were processed

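Poly(A) RNA-seq libraries were prepared directionally from 500 ng of tumour RNA, per the labels' protocols. The authors deposited 1 table with a normalized value per gene and tumour (unit: signal), with coordinates on hg38; the submitters' processing notes name STAR and DESeq2 without versions. Strand counting and the handling of mouse reads are not given in the sources used here. Of values worth up to 20 reads, 70.6% to 83.8% per library came out whole within 0.02 reads, so reads could not be recovered and no count test was run. Dividing each total by the value of 1 read gave the estimated reads. No pair of libraries agreed within sampling noise (lowest chi-square per degree of freedom 7.80).

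Values were analysed as log2(value + 1), which understates changes of low genes, for genes with a mean of at least 10. Genotypes were compared in limma 3.58.1 (statmod 1.5.0, R 4.3.3), with a trended prior, line as a random block (consensus correlation 0.0077) and Benjamini-Hochberg adjustment at 0.05 over all genes tested. Lines were fixed effects in the F tests, in the comparison of each KO line with the mean of the WT lines and in the slopes on CA9. The fits were tested on simulated data. Levels per kilobase used the union of exons in GENCODE 29, which is not the release of the submitters' gene models. The union takes in the exons of every annotated transcript, 8571 bases for PKM and 2981 for GAPDH. Rankings per kilobase between genes therefore depend on it. Figures used matplotlib 3.10.9.

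The members and lists were chosen with earlier results of these data known. Given in full were CA9, HIF1A, the gene with the highest mean in each role and those with an unadjusted p under 0.05 between genotypes; of other lists, genes past the threshold, or else the 2 with the highest mean. Genes named for their slope on CA9 or for an unadjusted p in other lists were chosen after their values were seen, and 1 gene of the other lists is not reported here. Alternatives were another pseudocount, filter and scaling, each tumour or line left out, no block, line means, quality weights, and fibroblast or muscle covariates; the muscle covariate and the line means without specimens 5532 and 5533 were added after seeing the data.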

Additional observations from a re-analysis of the deposited data

Results flagged for a closer look

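In lines with 4 tumours, 165 groups of values of the 33 genes were tested for a tumour far from its line, and 11 were found by Dixon's criterion, where chance gives about 1 in 20 groups. Of these, 4 were WT 6C9 specimen 5533, the library with the fewest reads: TPI1 at 12031.9 (others of the line 6174.81 to 6236.11), PGK1 at 10484.2 (6420.87 to 7059.44), PGAM1 at 8005.79 (6295.4 to 6423.13) and BNIP3L at 5545.06 (2157.51 to 2725.93).

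Among KO tumours, 1G10 specimen 5548 had TPI1 at 7071.24 (others 5923.59 to 6061.23) and 1G10 specimen 5549 had ENO1 at 21929.1 (15559.8 to 16433.8). Specimen 5543 of 2B8 had ALDOC at 309.676 (289.79 to 290.649), and specimen 5545 of 2B8 had HIF1A at 2056.51 (2728.66 to 2846.48), the only low one of the 11.

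Among the other WT tumours, 5B2 specimen 5526 had GPI at 5771.74 (others 3834.85 to 3932.15), 5B2 specimen 5529 had CA12 at 4462.11 (2688.99 to 2940.25), and 6C10 specimen 5534 had PGAM1 at 6141.72 (5559.13 to 5637.68).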

How the results depend on the processing

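With a pseudocount of 10, no filter on the mean, a mean of at least 100, no block for line or line means as samples, every log2 difference of the genes tested kept its direction and its side of the threshold. Between KO and WT tumours the genes called numbered 0 with every library rescaled to the same total, with fibroblast markers as a covariate, with line means as samples, without specimens 5532 and 5533, and without line 5B2, 6C10, 2B8 or 1G10. With library quality weights 1024 genes were called, 1 of them in the set, CA12 at 0.38 (adjusted p = 0.034).

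Log2 differences of KO minus WT that changed sign were all small after the change, but some, such as those of HK2 and KDM3A, were larger with all tumours. Without specimens 5532 and 5533 they were HK1 at -0.0073, PFKL at -0.057, PFKM at -0.010, PFKP at -0.072, ALDOA at 0.020, TPI1 at 0.019, PGK1 at 0.032, PGAM1 at 0.0094, EGLN3 at -0.054 and KDM3A at -0.00084. Without line 6C9, which holds both specimens, they were HK1 at -0.0043, HK2 at -0.012, PFKM at -0.011, PFKP at -0.026, ALDOA at 0.028, TPI1 at 0.044, PGK1 at 0.074, PGAM1 at 0.026, EGLN3 at -0.072 and KDM3A at -0.016. Without 6C10 they were PFKL at -0.048, ENO1 at -0.041, SLC16A3 at -0.090 and ADM at -0.040; without 2F7, ALDOA at 0.031 and PGK1 at 0.016; without 2B8, PFKL at -0.024; without 1G10, GPI at -0.025, ADM at -0.10 and EGLN3 at -0.013. With libraries rescaled to the same total they were ALDOA at 0.042, PGK1 at 0.016 and PGAM1 at 0.026. With quality weights they were PFKM at -0.022, ALDOA at 0.037, TPI1 at 0.024, PGK1 at 0.055 and PGAM1 at 0.016, and with fibroblast markers as a covariate PFKL at -0.035 and ALDOA at 0.011. The cause was not tested.

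Leaving out 1 tumour at a time gave 0 to 1 genes called between genotypes, 0 to 1 among WT lines, 0 to 17 for KO 2B8, most without WT specimen 5529, and 0 to 26 for KO 1G10, most without WT specimen 5531, with no gene of the set called. The sign changed for PFKL (-0.025 to 0.060), PFKM (-0.020 to 0.15), PFKP (-0.013 to 0.11), ALDOA (-0.029 to 0.035), TPI1 (-0.098 to 0.013), PGK1 (-0.065 to 0.027), PGAM1 (-0.050 to 0.0055), ADM (-0.025 to 0.13) and EGLN3 (-0.027 to 0.098). The median was 0.05 to 0.11 for the enzymes, 0.27 to 0.40 for transport and flux control and 0.11 to 0.18 for the other targets. Single KO lines against WT had 3 genes called for 1G10 at a mean of at least 100, and 1 each for 2B8 and 2F7 with no filter.

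For the slopes on CA9, genes called numbered 188 with no line term, with 3 in the set (P4HA1 slope 0.38, adjusted p = 0.015) and 17 of 32 positive at an unadjusted p under 0.05. They numbered 1 without specimens 5532 and 5533, and 0 without line 5B2, 6C9, 2F7, 2B8 or 1G10, without the 2 tumours farthest from the CA9 median, or with skeletal muscle markers as a covariate, the alternative chosen after seeing the data, which left 4 positive. Without 6C10 there were 6 positive. Leaving out 1 tumour gave 0 to 13 genes called, 0 to 1 in the set and 8 to 14 positive, each highest without specimen 5533.

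No paired analysis was possible because the tumours carry specimen numbers that no KO and WT tumour share. Specimens 5532 and 5533 had the fewest reads, which limits the precision of low genes such as SLC16A3 in WT 6C9.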

Other observations

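Outside the hypoxia and glycolysis lists, 2 genes passed the threshold for a slope on CA9 within lines. Keratin KRT13, an intermediate filament protein of the suprabasal layers of mucosal epithelium, had a slope of -2.58 (limma, adjusted p = 0.024), and -2.18 without specimens 5532 and 5533 (adjusted p = 0.049). The receptor gene GPRC5C had a slope of 0.79 (adjusted p = 0.024), and 0.70 without both specimens (adjusted p = 0.419). With skeletal muscle markers as a covariate, chosen after seeing the data, the slopes were -2.16 and 0.66, and neither was called (adjusted p = 0.996 for each).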
